A study of Rattus norvegicus with 8 samples.

Results

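The 3 genes Cxcl1, Cxcl2 and Cxcr2 encode a pair of neutrophil-attracting chemokines and the receptor that both of them bind. They were found by their symbols, and all 3 stood in both deposited tables, among 4136 genes listed for imiquimod against untreated ganglia, 775 for lidocaine against imiquimod and 4351 in all. Expression was measured by RNA sequencing of dorsal root ganglia, the clusters of sensory neuron cell bodies beside the spinal cord, from Sprague Dawley rats of 250 g and wild-type genotype. The WT group (n = 3) had no treatment. The IMQ group (n = 3) had imiquimod, an agonist of Toll-like receptor 7 whose use on skin gives psoriasis-like inflammation, on the back skin for 6 days. The lidocaine group (n = 2) had the same imiquimod course and, from day 3 on, 4 daily doses of 1% lidocaine, a sodium channel blocker, into the epidural space. Ganglia were taken on day 7. The labels describe neither a vehicle on the skin of WT rats nor an epidural injection without the drug, so imiquimod cannot be told apart from its vehicle, nor lidocaine from its injection.

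CXCL1 and CXCL2 are small secreted proteins of the CXC class that carry the Glu-Leu-Arg motif. Macrophages, endothelial cells, fibroblasts and glia make them within hours of signals from interleukin 1, tumor necrosis factor or Toll-like receptors, and the transcription factor NF-kB drives their genes. CXCR2 is a G protein-coupled receptor that is found mainly on neutrophils and guides them along ligand gradients out of marrow and blood; rodents lack a gene for interleukin 8, and CXCL1 and CXCL2 fill that place.

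The promoters are shown because both ligand genes and the receptor gene were higher in IMQ than WT and lower under lidocaine than IMQ. RefSeq sequence of build GRCr8 was used, and the promoter table held Cxcl1, Cxcl2, Cxcr2 and Cxcl6, a related ligand. Each line gives the 250 bases before the annotated start, 5′ to 3′ on the gene's strand, with matches to the NF-kB consensus on either strand in capitals. The windows are chr14:17479322-17479571 on the minus strand for Cxcl1, chr14:17467256-17467505 on the minus strand for Cxcl2, chr14:17596418-17596667 on the minus strand for Cxcl6 and chr9:83178395-83178644 on the plus strand for Cxcr2.
Cxcl1: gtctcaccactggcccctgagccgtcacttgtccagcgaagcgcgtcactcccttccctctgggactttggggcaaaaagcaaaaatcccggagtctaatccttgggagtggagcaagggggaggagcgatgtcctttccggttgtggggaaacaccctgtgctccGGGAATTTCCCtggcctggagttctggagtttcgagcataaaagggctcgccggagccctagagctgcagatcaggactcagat
Cxcl2: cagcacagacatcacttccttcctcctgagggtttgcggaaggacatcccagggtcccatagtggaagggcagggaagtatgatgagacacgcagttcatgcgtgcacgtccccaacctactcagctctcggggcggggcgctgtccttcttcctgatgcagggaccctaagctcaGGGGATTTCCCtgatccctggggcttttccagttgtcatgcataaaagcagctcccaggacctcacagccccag
Cxcl6: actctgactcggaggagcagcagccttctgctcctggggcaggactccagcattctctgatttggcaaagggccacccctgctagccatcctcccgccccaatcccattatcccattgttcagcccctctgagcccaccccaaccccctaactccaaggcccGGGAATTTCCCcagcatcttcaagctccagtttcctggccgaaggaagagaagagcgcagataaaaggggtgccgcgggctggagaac
Cxcr2: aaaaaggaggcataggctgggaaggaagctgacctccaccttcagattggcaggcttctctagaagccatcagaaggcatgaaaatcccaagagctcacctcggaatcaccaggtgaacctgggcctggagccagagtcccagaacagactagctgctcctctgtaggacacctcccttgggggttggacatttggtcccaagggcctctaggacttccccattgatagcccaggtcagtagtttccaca
Each of the 3 ligand promoters held 1 run of overlapping matches, 11 bases long, which ended 73 bases before the start in Cxcl1, 63 in Cxcl2 and 77 in Cxcl6. The run in Cxcl1 and the run in Cxcl6 have the same letters. The Cxcr2 window held 0 matches, which says only that these letters are not in it. Of 33469 promoters of this length, 6.33% held a match. A match is a description of the sequence and not evidence of binding.

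Levels are log2(normalized count + 1), and a difference is 1 group mean less the other on this scale. One read was worth 0.723 to 0.892 normalized counts in WT libraries and 1.07 to 1.23 in the IMQ and lidocaine libraries, so reads could be recovered for each gene. Adjusted p-values are from limma over all genes of a table. Both tables hold only genes that the authors had called, so a member's call says how evenly its difference ran through the libraries. The labels do not say that each sample was a separate animal, so the spread behind each p-value is that among these samples and may be technical. Of 15 sensory neuron markers 5 were listed, among them peripherin (Prph) and Sncg at mean WT levels of 16.81 and 17.77. In bulk tissue, fewer cells of a type and less RNA per cell cannot be told apart.

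In ganglia of imiquimod-treated rats both ligands and their receptor were far above untreated ganglia. Cxcl1 (ENSRNOG00000002802) stood at 3.38, 3.76 and 3.17 in WT replicates 1, 2 and 3, from 13, 17 and 9 reads. In IMQ replicates 1, 2 and 3 it stood at 10.04, 7.90 and 9.0, from 875, 212 and 480 reads. Every IMQ library lay above every WT library. The difference was 5.54 (SE 0.56, limma adjusted p = 0.000326), a 46.6-fold rise on this scale. With a pseudocount of 10 the log2 difference was 4.70, and the ratio of summed reads per depth was 58.2-fold with a counting interval of 42.4 to 82.2.

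Cxcl2 (ENSRNOG00000002792) was close to undetected in untreated ganglia, with 3, 3 and 0 reads and levels of 1.66, 1.69 and 0 in the 3 WT libraries. The IMQ libraries held 1816, 138 and 889 reads, at levels of 11.10, 7.28 and 9.89, and again did not overlap with WT. Cxcl2 rose by 8.31 (SE 0.98, limma adjusted p = 0.000606), the 4th largest of the 2528 differences listed as higher in IMQ. Because the WT level rests on 6 reads, the ratio of summed reads per depth has a wide counting interval, 687-fold with an exact 95% interval of 315 to 1872, which covers counting error only. With a pseudocount of 10 the log2 difference was 5.94, and with 0.1 it was 9.73.

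Cxcr2 (ENSRNOG00000014269), the receptor, stood at 2.91, 3.07 and 2.19 in WT, from 9, 10 and 4 reads. In IMQ it stood at 8.20, 8.12 and 8.16, from 244, 248 and 267 reads. The groups did not overlap, and the 3 IMQ values were nearly equal. The difference was 5.44 (SE 0.37, limma adjusted p = 8.72e-05), a 43.4-fold rise on this scale. The WT level rests on 23 reads: the ratio of summed reads per depth was 47.8-fold with a counting interval of 31.6 to 75.9, and with a pseudocount of 10 the log2 difference was 4.23. All 3 members rose and had groups that did not overlap, where 58.9% of all listed genes were called higher and 57% were higher with groups that did not overlap. A further reading of the count is not possible against a background that high, and the sizes are the more telling values. The members ranked 37, 4 and 44 for Cxcl1, Cxcl2 and Cxcr2 among genes listed as higher, whose median difference was 1.89. Each call held without any 1 library, with differences of 5.01 to 6.08 for Cxcl1, 7.47 to 9.38 for Cxcl2 and 5.17 to 5.61 for Cxcr2.

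**Figure D1:**
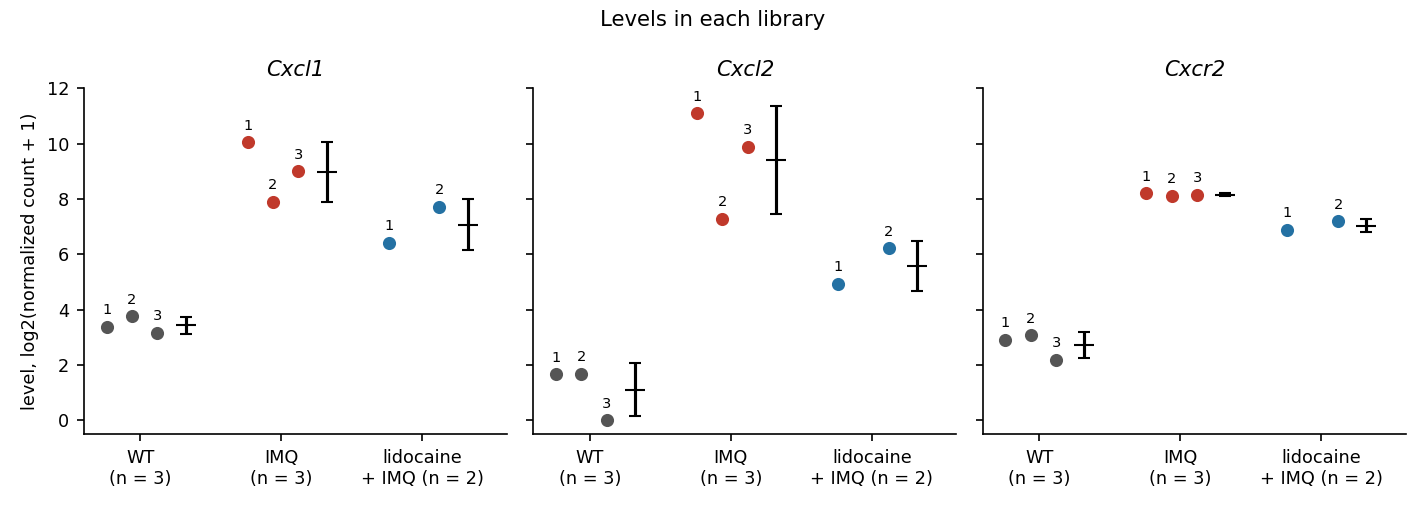
Levels of Cxcl1, Cxcl2 and Cxcr2 as log2(normalized count + 1) on the vertical axis, for the libraries of the WT, IMQ and lidocaine groups. Points are libraries with their replicate number, and bars are the group mean and SD; all IMQ libraries lie above all WT libraries, Cxcl2 spreads from 7.28 to 11.10 in IMQ and Cxcr2 only from 8.12 to 8.20.

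Of the other CXCR2 ligands and receptors, Cxcl3 (ENSRNOG00000028043) and Cxcl6 (ENSRNOG00000002843) were listed for IMQ against WT, and Cxcl5, Ppbp, Cxcr1 and the atypical receptor Ackr1 were not listed under those symbols; RefSeq gives Cxcl5 as an older symbol of rat Cxcl6. Cxcl3, a further ligand of CXCR2, had 0, 0 and 3 reads in WT and 559, 31 and 231 reads in IMQ replicates 1, 2 and 3. Its ratio of summed reads per depth was 397-fold, with a counting interval of 135 to 1927, and its difference of 6.88 (SE 1.08) passed the threshold (limma adjusted p = 0.00194). Cxcl6 stood out by its level in untreated ganglia, 40 reads in each WT library. It rose least of the 4 ligands, from 5.01 ± 0.16 to 6.62 ± 0.52 (SD, n = 3 and 3; difference 1.61, SE 0.38, limma adjusted p = 0.00854). In RefSeq's GRCr8 annotation the 4 ligand genes lie in 1 cluster on chromosome 14, in the order Cxcl2, Cxcl1, Cxcl3, Cxcl6. Of the 7 protein-coding genes from Cxcl2 to Cxcl6, these 4 were listed and Pf4, Ppbp and LOC134481726 were not. These chemokines are related copies, and how reads that match several of them were counted is not given in the sources used here.

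Epidural lidocaine on top of imiquimod went with lower levels of all 3 members, and Cxcl2 differed most. Cxcl2 stood at 4.93 and 6.22 in lidocaine replicates 1 and 2, from 24 and 66 reads, below every IMQ library. The difference from IMQ was -3.84 (SE 1.06, limma adjusted p = 0.0151), and the lidocaine mean normalized count was 4.70% of the IMQ mean. Cxcl1 stood at 6.43 and 7.72, from 69 and 188 reads. Its higher lidocaine library lay just under IMQ replicate 2, at 7.90, so the groups met without overlap. The difference was -1.91 (SE 0.66, limma adjusted p = 0.0302), and the lidocaine mean was 24.5% of the IMQ mean.

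Cxcr2 changed less and more evenly. It stood at 6.88 and 7.20 under lidocaine, from 95 and 131 reads, and its mean normalized count was 46.1% of the IMQ mean. The difference was -1.12 (SE 0.23, limma adjusted p = 0.0068). All 3 members fell and had groups that did not overlap, where 87.1% of all genes listed for this comparison were called lower and 89.2% were lower without overlap, so the count carries no information about the members. The median of the 702 differences listed as lower was -1.52. The call for Cxcr2 held without any 1 library, with differences of -1.28 to -0.96 and adjusted p-values of 0.0137 to 0.0388. The call for Cxcl2 was lost without either lidocaine library, with adjusted p = 0.164 and a difference of -3.20 without replicate 1, and 0.0853 and -4.49 without replicate 2. The call for Cxcl1 was lost without IMQ replicate 1 (-1.38, adjusted p = 0.0685), IMQ replicate 3 (-1.90, 0.0556), lidocaine replicate 1 (-1.26, 0.273) or lidocaine replicate 2 (-2.55, 0.0815). With 1 lidocaine library left, that library is assumed to vary like the IMQ libraries.

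None of the 3 members was back at the untreated level under lidocaine. In 1 fit over the 560 genes in both tables, lidocaine stood above WT by 3.63 for Cxcl1 (SE 0.61, limma adjusted p = 0.0012), 4.46 for Cxcl2 (SE 1.02, adjusted p = 0.00593) and 4.32 for Cxcr2 (SE 0.38, adjusted p = 5.45e-05). In each of the 3 genes both lidocaine libraries lay above all WT libraries. Of these 560 genes 37.5% were called higher and 52.7% were higher without overlap. On this scale the order of the group means was WT, lidocaine, IMQ in each gene. The call for Cxcl2 against WT was lost without lidocaine replicate 2 (3.82, adjusted p = 0.0621). Comparisons with lidocaine share their IMQ or WT libraries with the first comparison, and their values stand side by side here without a test between them.

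Ligand was set against receptor within each library, where the scaling of a library cancels for well-counted genes but not at the 0 to 17 reads of the WT libraries, whose values depend on the pseudocount. Gene lengths differ, so the value within 1 library has no meaning by itself, and only its change between groups was read. Cxcl1 minus Cxcr2 was 0.47, 0.69 and 0.98 in WT, 1.84, -0.23 and 0.84 in IMQ, and -0.46 and 0.52 in lidocaine. The IMQ libraries lay on both sides of the WT libraries. The mean was 0.72 ± 0.26 (SD, n = 3) in WT and 0.82 ± 1.03 (SD, n = 3) in IMQ, a difference of 0.10 (two-sided exact permutation p = 0.9). The sign of that small difference turned without IMQ replicate 1 (-0.41) or WT replicate 1 (-0.02). Lidocaine differed from IMQ by -0.79 and from WT by -0.68 (exact permutation p = 0.4 for each).

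For Cxcl2 the ligand and the receptor differed more between groups, by an amount that depends on the pseudocount. Cxcl2 minus Cxcr2 was -1.24, -1.38 and -2.19 in WT and 2.89, -0.84 and 1.73 in IMQ, so that every IMQ library lay above every WT library. The difference was 2.87, with an exact permutation p = 0.1, the smallest that 3 against 3 libraries allow. It rests on the few WT reads of Cxcl2: with a pseudocount of 10 it was 1.71 (exact permutation p = 0.4), and with 0.1 it was 4.07. Under lidocaine the value was -1.95 and -0.98, below all IMQ libraries. That difference was -2.72, with an exact permutation p = 0.2, the smallest that 2 against 3 libraries allow. Lidocaine against WT differed by 0.14 (exact permutation p = 0.8), and the sign turned without lidocaine replicate 2 (-0.34) or WT replicate 3 (-0.15), and with a pseudocount of 10 (-0.83). Cxcl2 minus Cxcl1 gave the same order, with -2.32 ± 0.76 in WT (SD, n = 3), 0.44 ± 0.92 in IMQ (SD, n = 3) and -1.49 and -1.50 in the 2 lidocaine libraries; its IMQ against WT difference of 2.76 was 1.25 with a pseudocount of 10 and 4.06 with 0.1. Over the 9 comparisons of this kind, Benjamini-Hochberg adjusted p-values of these exact permutation tests were 0.36 to 0.9, and no design here could have passed 0.05.

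**Figure D2:**
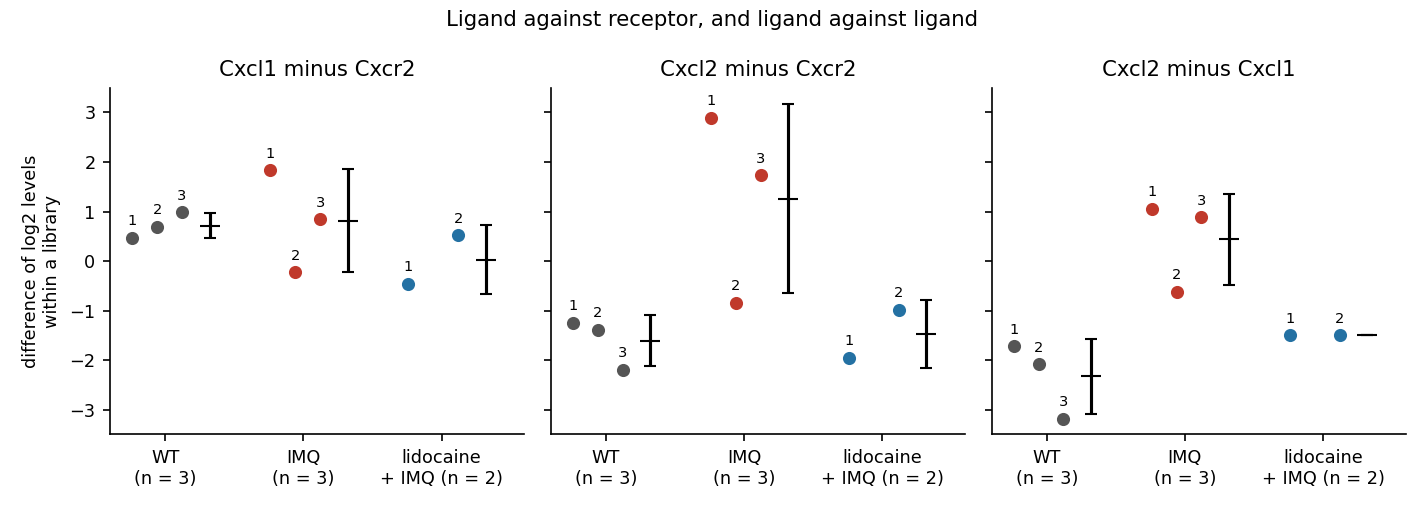
Difference of log2 levels within a library, on the vertical axis, for Cxcl1 minus Cxcr2, Cxcl2 minus Cxcr2 and Cxcl2 minus Cxcl1 in the WT, IMQ and lidocaine groups. Points are libraries with their replicate number and bars are the mean and SD; Cxcl2 minus Cxcr2 is between -0.84 and 2.89 in IMQ and between -2.19 and -0.98 in all other libraries, and the position of 0 depends on gene length.

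The IMQ libraries differed among themselves in the ligands far more than in the receptor. From the lowest to the highest IMQ library, normalized counts spread 14.1-fold for Cxcl2, 4.44-fold for Cxcl1 and 1.06-fold for Cxcr2. The SD was 1.95, 1.07 and 0.04 on the log2 scale, where the median gene of the table had 0.20. Of the 4136 listed genes, 99.0% had a smaller SD than Cxcl2, 94.5% a smaller one than Cxcl1 and 7.52% a smaller one than Cxcr2. Cxcl3 spread 19.4-fold. Cxcl1, Cxcl2 and Cxcl3 stood in the same order, with IMQ replicate 1 highest, then replicate 3, then replicate 2. By value alone Cxcl6 and Cxcr2 stood in that order too. Cxcl6 was highest in replicate 1 and nearly equal in replicates 2 and 3. The 3 values of Cxcr2 lay within counting error of each other. Shares of genes in that order were counted by value alone, with no allowance for counting error. The order was seen in 24.6% of all listed genes and in 29.4% of those listed as higher in IMQ.

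That order was shared by 9 of 10 listed NF-kB factors and brakes, 9 of 12 mature neutrophil markers, 3 of 4 granule genes of marrow granulocytes and 11 of 17 inducers of these chemokines. It was shared by 9 of 16 signalling genes, 4 of 8 adhesion genes, 5 of 11 other CXC chemokines and receptors and 1 of 14 macrophage markers. In the remaining lists it was shared by 0 of 5 erythroid, 1 of 5 sensory neuron and 1 of 2 glia markers. Genes are not independent replicates, some such as Il1r2 are in more than 1 list, and these shares are descriptions. Among 359 genes with values in all 8 libraries and a mean of 50 or more normalized counts, the genes whose deviations from the group means were most like those of Cxcl1 were Slco4a1 (Pearson r = 0.98), the endotoxin co-receptor Cd14 (0.96), the interleukin 1 receptor antagonist Il1rn (0.96), Esm1 (0.93) and Cxcl2 (0.92). Those most like Cxcl2 were the hyaluronan-degrading Cemip (0.95), Esm1 (0.95), RGD1566368 (0.94), the cytokine Osm (0.94) and Cxcl1 (0.92). Those most like Cxcr2 were Selplg, which encodes the selectin ligand of leukocytes (0.99), LOC103690020 (0.98), Ch25h (0.97), Fgfr3 (0.97) and LOC684871 (0.94). The receptor ranked 133rd for Cxcl1 (0.42) and 93rd for Cxcl2 (0.56). With 8 libraries in 3 groups these correlations rest on few independent deviations. Those of Cxcr2 rest mainly on its WT libraries, at 9, 10 and 4 reads, with an SD of 0.47 in WT and 0.04 in IMQ. The SD was 0.30 in WT and 1.07 in IMQ for Cxcl1, and 0.97 and 1.95 for Cxcl2. The ranks of the receptor and the genes most like it therefore do not describe the spread among IMQ libraries.

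**Figure D3:**
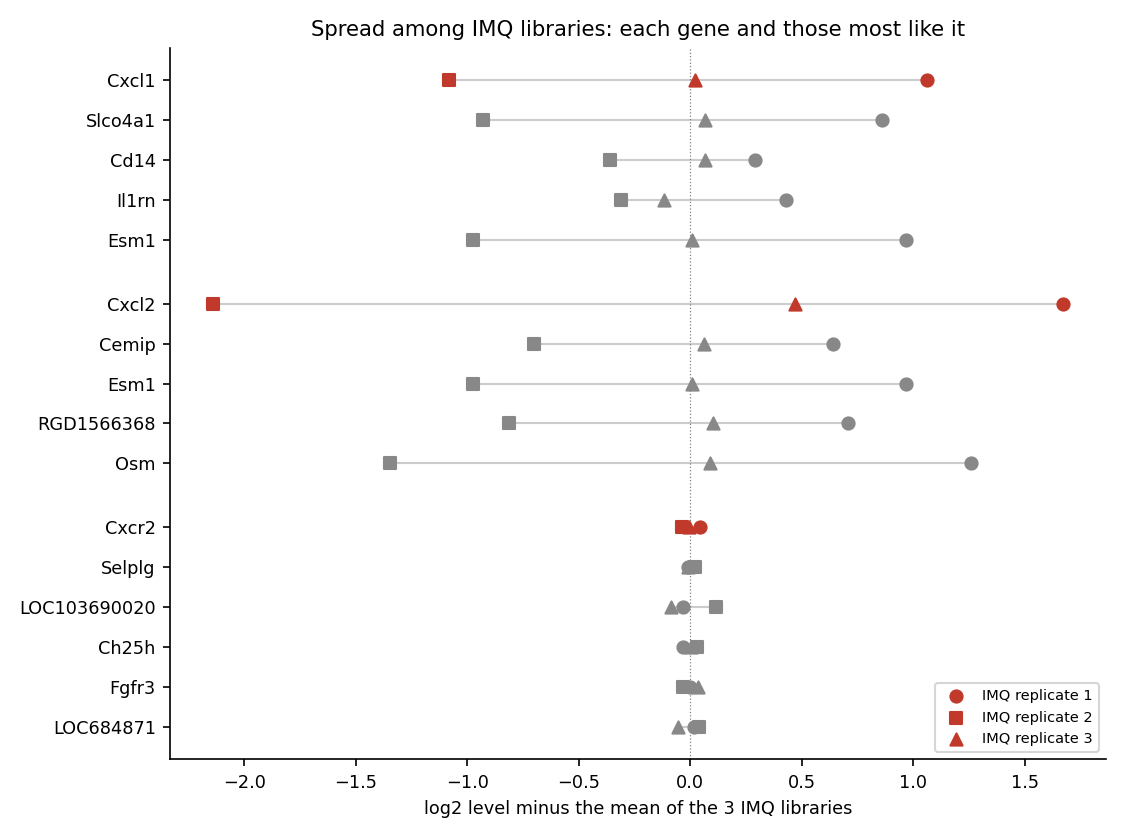
Level of each gene in the 3 IMQ libraries as the log2 level minus their mean, on the horizontal axis, for Cxcl1, Cxcl2 and Cxcr2 (red) and the genes most like each by deviations over 8 libraries (grey). Symbols mark IMQ replicates. Cxcl1 and Cxcl2 run from replicate 2 to replicate 1 with SDs of 1.07 and 1.95, and the points of Cxcr2 nearly coincide with an SD of 0.04. The genes most like Cxcr2 were picked mainly by its WT libraries, which are not drawn.

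Signals that induce these chemokines were higher in IMQ as well. Of 24 genes in this list 17 were listed, of which 16 rose and 1, Il36g, fell. Of all listed genes 58.9% were called higher and 37% lower. The median difference was 3.05, also with 5 genes at 0 in 1 group set at their bound. It was 1.25 over all listed genes and 1.89 over those listed as higher. Tnfrsf1b, a receptor of tumor necrosis factor, rose by 3.93 (SE 0.29), and Cd14 by 3.05 (SE 0.28). Il1b, the cytokine interleukin 1 beta, rose by 5.74 (SE 0.67), and its levels over the 8 libraries were among the closest to those of Cxcl2 (r = 0.99, groups included). No WT library held a read of Tnf, which had a mean level of 5.11 in IMQ. Csf2 was the least even, at 0 in WT and 2.21 in IMQ (limma adjusted p = 0.0431). Under lidocaine 6 of the 24 were listed, and all 6 fell, where 87.1% of all listed genes were called lower. Their median was -2.39 beside -1.44 over all listed genes and -1.52 over those listed as lower. These 6 included Tnfrsf1b (-1.64, SE 0.27), Il36b (-3.10, SE 0.68), Il1b (-2.19, SE 0.64) and Il1a (-2.59, SE 0.89). Without lidocaine replicate 1, 2 of these 6 passed.

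Of 18 NF-kB factors and their brakes 10 were listed and all 10 rose, with a median of 2.83, where 58.9% of all listed genes were called higher and genes listed as higher had a median of 1.89; the same background holds for the other lists in this comparison. Il1rn, which blocks the interleukin 1 receptor, rose by 5.82 (SE 0.30), Socs3 by 4.96 (SE 0.38) and the NF-kB cofactor Bcl3 by 2.94 (SE 0.30). Il1rn and Socs3, the largest rises in the list, do not encode NF-kB factors, so their sizes are not read as values of that pathway. Tnfaip3, a deubiquitinase that dampens NF-kB, was the least even (2.72, SE 0.69). Under lidocaine 9 were listed and all 9 fell, where 87.1% of all listed genes were called lower. Their median of -1.20 was a smaller fall than the -1.44 over all listed genes. Among them were Socs3 (-1.83, SE 0.25), Il1rn (-1.42, SE 0.29), the decoy receptor Il1r2 (-1.34, SE 0.28) and the inhibitor Nfkbia (-1.03, SE 0.33). Of these 9, 3 passed without lidocaine replicate 1 and 5 without lidocaine replicate 2.

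Listed genes that act downstream of CXCR2 were higher in IMQ, and the few listed under lidocaine were lower there than in IMQ. Whether these differences run through CXCR2 was not tested. Of 24 genes for signalling and motility 16 were listed and all 16 rose, with a median of 2.21. The oxidase subunit Cybb rose by 3.00 (SE 0.22), Pik3r5, a regulatory subunit of phosphoinositide 3-kinase gamma, by 3.56 (SE 0.27), and the Src family kinase Fgr by 4.04 (SE 0.31), while Pik3r6 rose by 1.02 (SE 0.35). Under lidocaine 5 of the 24 were listed and all 5 fell, where 87.1% of all listed genes were called lower. Their median was -1.16 beside -1.44 over all listed genes. Among them were Pik3r5 (-1.27), Fgr (-1.04), Vav1 (-1.25) and Plcb2 (-1.16). The rest of the 24 have no lidocaine values here. Of 12 genes for adhesion of neutrophils to vessel walls 8 were listed and all 8 rose, with a median of 3.67. P-selectin (Selp) rose by 4.86 (SE 0.33), the integrin Itgb2 by 3.37 (SE 0.24), E-selectin (Sele) by 3.88 (SE 0.30) and Vcam1 by 1.91 (SE 0.26). All 8 were listed as lower under lidocaine and fell, where 87.1% of listed genes were called lower, and their median of -1.34 did not reach the -1.44 over all listed genes.

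Listed neutrophil markers were higher in IMQ, as the members were. Of 15 mature neutrophil markers other than Cxcr2, 12 were listed and all 12 rose, with a median of 2.92, and 7 of the 12 passed without IMQ replicate 1 or without IMQ replicate 3. Their summed normalized count was 1077 to 2362 in WT and 6415 to 10867 in IMQ, with no marker at 0 in all libraries of a group. Csf3r, the receptor of granulocyte colony-stimulating factor, rose by 4.73 (SE 0.32) and Trem1, an activating receptor of myeloid cells, by 4.23 (SE 0.46). S100a9, an abundant cytosolic protein of neutrophils, was already at 10.32 in WT and rose by 1.20 (SE 0.49, limma adjusted p = 0.0459). Of 14 granule genes of marrow granulocytes 4 were listed, summing to 205 to 869 in WT and 4887 to 5405 in IMQ, with Fcnb 3.22 higher (SE 0.39) and Prtn3 1.36 higher (SE 0.54); all 4 rose, and 2 of them passed without WT replicate 1, IMQ replicate 1 or IMQ replicate 3. All 14 macrophage markers rose, with sums of 13737 to 16833 in WT and 130582 to 161400 in IMQ. The 5 listed erythroid markers fell, with sums of 33702 to 83854 in WT and 3342 to 14400 in IMQ, and the 5 listed sensory neuron markers fell with a median of -1.09; 3 erythroid markers passed without WT replicate 2 or IMQ replicate 1, and 2 neuron markers without IMQ replicate 3. Of all listed genes 58.9% were called higher and 37% lower. The part of these cells in the levels of Cxcl1, Cxcl2 and Cxcr2 was not tested.

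Under lidocaine 9 mature neutrophil markers were listed and all 9 fell, with a median of -1.65 beside -1.44 over all listed genes, and 3 passed without lidocaine replicate 1. Their sum was 4071 to 9084 in IMQ and 1952 to 2033 in lidocaine. Of the granule genes 8 were listed and all 8 fell, with sums of 1890 to 3051 in IMQ and 455 to 694 in lidocaine; 1 passed without lidocaine replicate 1, 2 without lidocaine replicate 2 and 4 without IMQ replicate 1 or 3. Erythroid markers, which stand for blood and marrow, also fell, in 7 of 7 listed, and 2 of them passed without lidocaine replicate 1. The macrophage markers had 9 of 14 listed, all 9 lower, with sums of 114159 to 144518 in IMQ and 46248 to 53152 in lidocaine. Of all genes listed for lidocaine against IMQ, 87.1% were called lower. The counts of falling genes in these lists are near that share and carry no information about these cell types. Of 8 mature neutrophil markers with values in all 8 libraries, 4 were higher under lidocaine than in WT and past the threshold, as Cxcr2 was. Of all 560 genes 37.5% were called higher there, so the count carries no information about neutrophils. Among the 4 markers were Il1r2 (2.08, SE 0.52), Trem1 (1.86, SE 0.57) and Trem3 (1.66, SE 0.50). Trem1, Trem3, S100a9 and Fpr2 are named after their values were seen. S100a9, Mmp8 and Fpr2 differed from WT by -0.24, -0.21 and -0.40 and did not pass. Cd177, a surface protein of a neutrophil subset, was lower than in WT (-3.30, SE 0.90, limma adjusted p = 0.0149), as were 5% of the 560 genes. Its mean level under lidocaine was 1.65, near the floor, where the size of a difference depends on the pseudocount. Set against the sum of these 8 markers, Cxcr2 was 0.16% to 0.70% in WT, 3.61% to 7.49% in IMQ and 6.41% to 8.23% in lidocaine, a sum to which S100a9 contributes most.

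**Figure D4:**
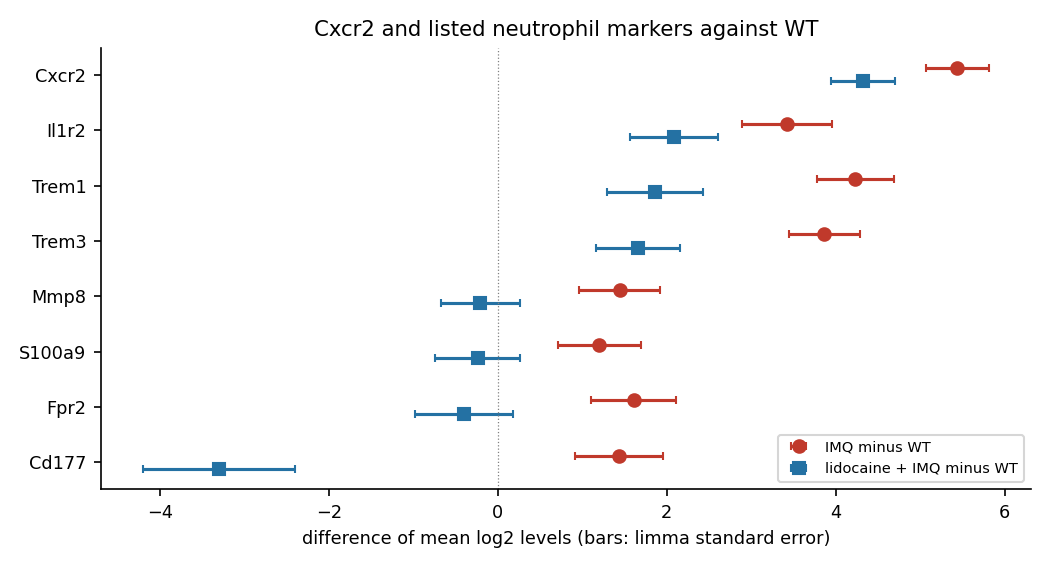
Difference of mean log2 levels from WT, on the horizontal axis, for Cxcr2 and 7 mature neutrophil markers with values in all 8 libraries, in IMQ (circles) and in lidocaine (squares). Bars are limma standard errors; Cxcr2 lies furthest above WT of the genes drawn in both groups, and Mmp8, S100a9 and Fpr2 lie within 1 standard error of WT under lidocaine.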

How the data were processed

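Dorsal root ganglia of 3 WT, 3 IMQ and 2 lidocaine samples were sequenced, and groups follow the labels. The authors deposited log2 values per library in 2 tables, which hold only genes with a difference of at least 1.00 between groups; bcl2fastq, STAR 2.5.3a and DESeq2 are named in the submitters' processing notes. Not given in the sources used here were the genome build, the annotation, the counter and its use of strand. The deposited log2 values were read as log2(normalized count + 1), because values up to 2000 reads came out whole in 100% of cases within 0.02 reads. IMQ values of both tables differed by at most 4.98e-09. Relative depth was 1.09 to 1.34 in WT, 0.808 to 0.912 in IMQ and 0.789 to 0.873 in lidocaine libraries. Few reads limit the WT values of the members most, although the WT libraries were the deepest.

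Genes with a mean normalized count of at least 1 were tested with limma 3.58.1 with trend in R 4.3.3, with Benjamini-Hochberg adjustment over each table and a threshold of 0.05; lidocaine against WT was fitted over the 560 genes in both tables. The fit was tested on simulated data with the same spread for every gene, which does not cover the wide spread of Cxcl1 and Cxcl2 in IMQ. Ligand minus receptor used two-sided exact permutation tests (SciPy 1.17.1, Python 3.11.15). No pair of libraries of a group was a repeat of another, with a median chi-square per gene of at least 2.39. The members and gene lists were chosen with earlier results of these data known, so no list is independent support. Genes named were the members, the listed CXCR2 ligands, from each list the 3 with the smallest and the 1 with the largest adjusted p, and the 5 most like each member. Alternatives were other pseudocounts, filters, thresholds, no trend, no normalization, limma-voom on recovered reads, a replicate block and leaving out each library; list counts without each library were added after seeing the data. Of the genes counted in the lists, 1 is not reported here by name.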

Additional observations from a re-analysis of the deposited data

How the results depend on the processing

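In IMQ against WT, Cxcl1, Cxcl2 and Cxcr2 kept their calls under all alternatives run, while their sizes moved with the pseudocount, as given with each gene. At an adjusted p under 0.01, 1276 genes were higher and 619 lower, and with no normalization 1279 were higher, against 2435 and 1530. In lidocaine against IMQ, with 58 genes higher and 675 lower, a mean normalized count of at least 50 left 12 and 441, and the threshold of 0.01 left 18 and 336, where Cxcl1 (-1.91) and Cxcl2 (-3.84) no longer passed. In lidocaine against WT, 124 genes were higher with no normalization against 210, and Cxcl2 missed the threshold with a pseudocount of 10 (2.33, adjusted p = 0.0503) and with limma-voom (5.04, adjusted p = 0.0603). The cause was not tested. With a pseudocount of 10, lidocaine against WT turned to -0.83 for Cxcl2 minus Cxcr2 and -0.53 for Cxcl2 minus Cxcl1.

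Without 1 library, counts ranged from 1563 to 2397 higher and 869 to 1552 lower in IMQ against WT (1608 and 869 without WT replicate 2, 1563 and 892 without IMQ replicate 3), and from 23 to 50 higher and 364 to 644 lower in lidocaine against IMQ, where the lowest values came without lidocaine replicate 1. Differences ranged from -2.55 to -1.26 for Cxcl1 and -4.92 to -3.01 for Cxcl2 in lidocaine against IMQ, and from 3.82 to 5.10 for Cxcl2 in lidocaine against WT. Cxcl1 minus Cxcr2 ranged from -0.41 to 0.63 in IMQ against WT, and Cxcl2 minus Cxcr2 from -0.34 to 0.63 in lidocaine against WT.

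Same-numbered WT and IMQ libraries had deviations that correlated at -0.16, -0.06 and -0.12, and IMQ and lidocaine libraries at 0.03. With so few libraries per group, such correlations cannot decide whether the replicate numbers pair the samples. With the replicate block 37 genes were higher in lidocaine against IMQ, Cxcl2 minus Cxcr2 in lidocaine against WT was -0.15, and all calls of the members held. Few reads in WT limit the levels of Cxcl2, with 3, 3 and 0 reads.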

Other observations

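Of 14 other CXC chemokines and their receptors 11 were listed for IMQ against WT and all 11 rose, where 58.9% of all listed genes were called higher. Their median difference was 4.19, beside 1.89 over genes listed as higher. The B cell chemokine Cxcl13 rose by 7.09, Cxcl14 by 4.66 and the interferon-induced Cxcl11 by 5.30, and Cxcl12 rose least evenly, by 1.26. Under lidocaine 3 were listed, and Cxcr6 (-3.15), Cxcl11 (-1.89) and Cxcr3 (-2.68) all fell against IMQ; 1 of the 3 passed without lidocaine replicate 1. Of all genes listed for lidocaine against IMQ, 87.1% were called lower. CXCR3 and CXCR6 are receptors of T cells. Of 10 markers of satellite glia and Schwann cells 2 were listed, and both rose in IMQ. Under lidocaine 1 of the 2 passed, 2 without IMQ replicate 2 and 0 without lidocaine replicate 2.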
